A study of Homo sapiens with 24 samples.

Results

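The cornified envelope genes described here are SCEL, SPRR1A, SPRR1B, SPRR3, IVL, TGM1, CNFN, PPL and EVPL, measured in EGF-stimulated MCF10A cells. They are 9 of 18417 genes that had at least 1 probe set carrying a single gene symbol. A gene was to be represented by the probe set chosen by its highest mean level over the 24 arrays, but each of the 9 genes had 1 such probe set, so no choice between probe sets arose. The genes were listed because they belong to the cornified envelope and because SCEL, SPRR1B and TGM1 were already known to differ between the transfections when averaged over time. For these 3 genes the differences between transfections are therefore given as descriptions, with no test.

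The cornified envelope is a layer of cross-linked protein that replaces the plasma membrane of keratinocytes as they end their differentiation. Involucrin (IVL), the plakins periplakin (PPL) and envoplakin (EVPL) and the membrane-bound cross-linking enzyme transglutaminase 1 (TGM1) form an early scaffold beneath the membrane. Small proline-rich proteins (SPRR genes), sciellin (SCEL) and cornifelin (CNFN) are further substrates or components of it. Mammary epithelium does not cornify, but cultured basal-like epithelial cells transcribe several of these genes, and SPRR genes are known to respond to growth factors and to the AP-1 transcription factors.

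MCF10A is a non-tumorigenic human mammary epithelial line. The cells were transfected, using Oligofectamine, with siRNA oligonucleotides against hsa-miR-20a (si-miR-20a) or hsa-miR-671-5p (si-miR-671), or with a non-targeting oligonucleotide (si-control, called control here). EGF was then given, and the sampling times were 0, 30, 60 and 120 min, with 2 arrays labelled biological replicates in each of the 12 groups, 24 arrays in all. All groups shared the line, the transfection reagent and a growth medium that held EGF, insulin, hydrocortisone, cholera toxin and horse serum. The EGF dose of the stimulation and any removal of growth factor before it are not given in the labels. All non-zero times had EGF, so time in EGF and time since the start of the experiment cannot be told apart. Whether the replicates came from separate cultures is not given, so the p-values measure the spread between these samples, which may be technical. Mature microRNAs were not measured by these arrays, so the effect of the oligonucleotides on their targets has no check here.

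The mature sequences of the targeted microRNAs, from RefSeq on GRCh38.p14, are shown because they define the transfections, with the seed (bases 2 to 8) in capitals. The sequences of the transfected oligonucleotides themselves were not used here. The first lies at chr13:91351072-91351094 and the second at chr7:151238449-151238471, both on the plus strand.
hsa-miR-20a-5p: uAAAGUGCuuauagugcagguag
hsa-miR-671-5p: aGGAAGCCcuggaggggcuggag
Their seeds, AAAGUGC and GGAAGCC, differ.

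The AP-1 motif TGANTCA was looked for in the 250 bases before the gene start in RefSeq promoter windows of GRCh38.p14; it is its own reverse complement except at the central base, so 1 search covers both strands. Of the 9 genes, 6 had a window, and 5 of these held the motif, against 6.57% of all 35116 windows of this length. SPRR3 had TGAGTCA at -170 to -164 and IVL had TGAGTCA at -123 to -117, while the CNFN window held none. The windows of SCEL, SPRR1A and SPRR1B are printed because results below turn on these precursor genes, with the motif in capitals and positions counted back from the gene start. SCEL had TGACTCA at -49 to -43, SPRR1A had TGAGTCA at -108 to -102, and SPRR1B had TGAGTCA at -141 to -135 and TGAATCA at -111 to -105. Only 0.402% of all windows held the motif more than once.
SCEL promoter, chr13:77535456-77535705, plus strand: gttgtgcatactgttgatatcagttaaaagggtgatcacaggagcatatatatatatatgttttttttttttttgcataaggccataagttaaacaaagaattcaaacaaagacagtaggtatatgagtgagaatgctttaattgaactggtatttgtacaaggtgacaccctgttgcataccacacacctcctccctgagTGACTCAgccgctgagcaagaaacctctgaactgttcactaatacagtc
SPRR1A promoter, chr1:152983831-152984080, plus strand: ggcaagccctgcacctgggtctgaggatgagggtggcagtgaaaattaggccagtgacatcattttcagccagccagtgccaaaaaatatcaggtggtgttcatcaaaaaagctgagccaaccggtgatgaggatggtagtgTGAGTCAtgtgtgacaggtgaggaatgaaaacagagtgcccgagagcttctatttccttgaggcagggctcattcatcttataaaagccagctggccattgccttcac
SPRR1B promoter, chr1:153030953-153031202, plus strand: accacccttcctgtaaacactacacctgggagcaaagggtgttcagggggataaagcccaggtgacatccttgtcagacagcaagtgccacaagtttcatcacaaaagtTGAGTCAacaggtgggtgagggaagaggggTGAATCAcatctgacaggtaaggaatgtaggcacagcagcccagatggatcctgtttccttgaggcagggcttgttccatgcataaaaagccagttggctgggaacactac
A match is a description of these letters, and binding was not measured. IVL, SPRR1A, SPRR3 and SPRR1B lie together on chromosome 1, between 152908546 and 153032900, in the cluster known as the epidermal differentiation complex. The other members lie on chromosomes 13 (SCEL), 14 (TGM1), 16 (PPL), 17 (EVPL) and 19 (CNFN).

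Values are the authors' deposited log2 levels. A step of 1 is a doubling, and levels are not compared between genes because each probe set has its own response. Array medians lay between 6.56 and 6.57 and lower quartiles between 4.95 and 4.97, and the root mean square replicate SD of a group ran from 0.163 to 0.305, highest in si-miR-671 at 120 min. The file carries no detection calls. Basal epithelial markers fixed for this check, 8 of 12 of them measured, were all above the median level, with a mean per array of 11.1 to 11.3 in all transfections. Of the luminal markers 6 of 9 measured were above the median, of the mesenchymal markers 6 of 10, and of the blood and endothelial markers 2 of 8, with array means of 6.33 to 6.65 for the last. Single markers did move: of the 8 basal markers 3 were higher and 2 lower with si-miR-20a, and 2 were higher and 4 lower with si-miR-671. Of all probe sets, 24.5% were called with si-miR-20a and 14.5% with si-miR-671. The luminal factor gene FOXA1 was higher by 0.60 ± 0.06 and 0.82 ± 0.06 in the targeting transfections and rose by 1.27 ± 0.07 at 120 min of EGF. No other luminal marker was called in those transfections. At 120 min GATA3, also a luminal factor gene, went the other way, with a change of -0.595 ± 0.083, and the other 7 were not called. The part of these marker changes in the members' differences was not tested. In bulk RNA, a change in the share of cells of a type and a change of RNA per cell cannot be told apart.

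Across the 24 arrays SCEL had the widest range of log2 levels among the 9 genes, 4.87 to 7.46, followed by SPRR1B, 7.55 to 9.29, and TGM1, 7.10 to 8.62. CNFN ran from 5.50 to 6.87 and SPRR1A from 6.04 to 7.22. The remaining genes moved less. IVL lay between 5.82 and 6.62, SPRR3 between 4.88 and 5.65, EVPL between 6.19 and 6.81 and PPL between 8.26 and 8.82. SPRR3 was thus near the lower quartile of the arrays on all of them, where a change in transcript is measured poorly.

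**Figure D1:**
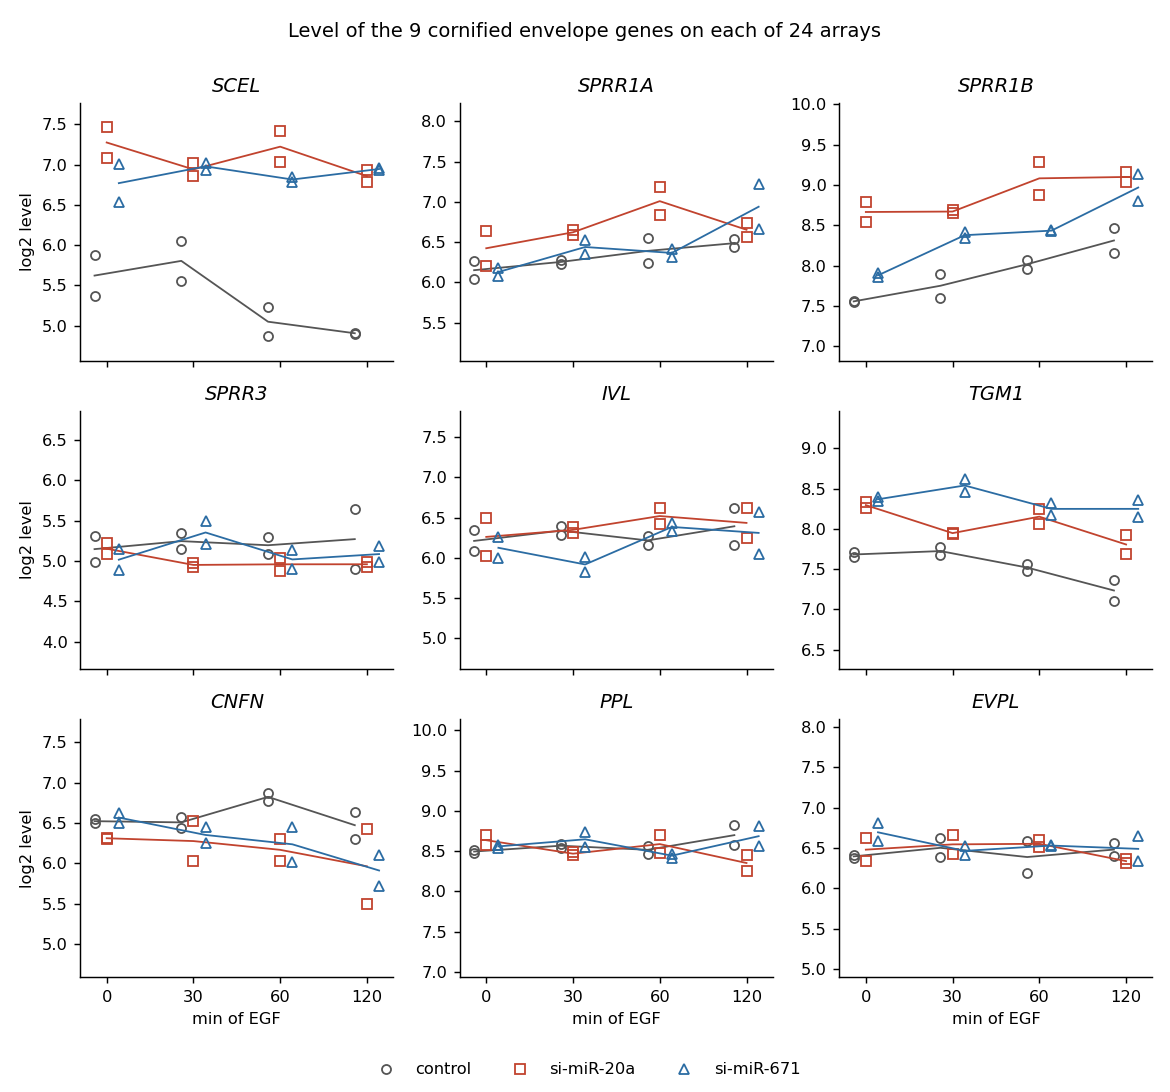
Log2 level of each of the 9 genes (y axis, the same span of 3.2 log2 units in each panel) at 0, 30, 60 and 120 min of EGF (x axis, categories not to scale), with 1 point per array and lines through the means of 2 arrays. Grey circles are control, red squares si-miR-20a and blue triangles si-miR-671. SCEL and TGM1 of the control lie apart from the targeting transfections, SPRR1B climbs with time, and PPL and EVPL stay level.

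SCEL, whose product sciellin is a precursor of the envelope, had its lowest levels in control cells. In control the 2 arrays read 5.88 and 5.37 at 0 min, 6.05 and 5.56 at 30 min, 4.87 and 5.23 at 60 min, and 4.90 and 4.91 at 120 min. In si-miR-20a they read 7.46 and 7.08, 7.02 and 6.85, 7.41 and 7.03, and 6.93 and 6.79 at the same times. In si-miR-671 they read 7.01 and 6.53, 6.94 and 7.02, 6.84 and 6.78, and 6.94 and 6.95. Every array of the targeting transfections lay above every control array, and the targeting transfections overlapped each other. The control levels at 60 and 120 min lay below those at 0 and 30 min. Of these late control arrays, 3 of 4 lay under the lower quartile of the arrays, so SCEL differences against them rest on a low signal not shown to be above background.

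SPRR1B, a small proline-rich precursor, rose with EGF and also differed between transfections. Control arrays read 7.56 and 7.55 at 0 min, 7.90 and 7.60 at 30 min, 8.07 and 7.96 at 60 min, and 8.47 and 8.16 at 120 min. The si-miR-20a arrays read 8.79 and 8.54, 8.65 and 8.69, 9.29 and 8.88, and 9.17 and 9.04. The si-miR-671 arrays read 7.90 and 7.86, 8.42 and 8.34, 8.44 and 8.43, and 8.81 and 9.13. All si-miR-20a arrays were above all control arrays, whereas si-miR-671 overlapped control when times were pooled and lay above it at each single time.

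SPRR1A, the close relative of SPRR1B, followed it in a smaller range. Control arrays read 6.04 and 6.27, 6.28 and 6.23, 6.55 and 6.24, and 6.53 and 6.44 at 0, 30, 60 and 120 min. With si-miR-20a the arrays read 6.64 and 6.21, 6.65 and 6.59, 7.18 and 6.84, and 6.74 and 6.57. With si-miR-671 they read 6.08 and 6.18, 6.53 and 6.35, 6.32 and 6.41, and 6.66 and 7.22. The last pair held the highest single level of the gene, and its replicates differed more than most pairs. As the SPRR genes are related in sequence, cross-hybridisation between them is possible for every SPRR value given here and was not tested.

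TGM1, the enzyme that cross-links the envelope, was lowest in control at every time. Its control arrays read 7.72 and 7.65, 7.77 and 7.68, 7.48 and 7.56, and 7.37 and 7.10 at 0, 30, 60 and 120 min. In si-miR-20a the levels were 8.33 and 8.26, 7.95 and 7.94, 8.25 and 8.06, and 7.92 and 7.69. In si-miR-671 the levels were 8.39 and 8.34, 8.62 and 8.46, 8.17 and 8.32, and 8.14 and 8.35. All si-miR-671 arrays exceeded all control arrays. The si-miR-20a arrays overlapped control only through the array at 7.69, which lay below the highest control arrays.

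CNFN, which encodes the envelope component cornifelin, had lower medians in the targeting transfections (6.30 with si-miR-20a and 6.35 with si-miR-671) than in control (6.56). Control arrays read 6.50 and 6.54, 6.44 and 6.57, 6.87 and 6.77, and 6.64 and 6.30. The si-miR-20a arrays read 6.30 and 6.32, 6.52 and 6.03, 6.03 and 6.31, and 6.42 and 5.50. The si-miR-671 arrays read 6.50 and 6.63, 6.25 and 6.45, 6.45 and 6.02, and 6.11 and 5.71. The transfections overlapped, and the lowest array, 5.50, had a replicate at 6.42.

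Changes with EGF were first averaged over the 3 transfections, with 6 arrays against 6. SPRR1A and SPRR1B rose, the cross-linking enzyme TGM1 fell, and SPRR3, SCEL, CNFN and the scaffold genes PPL, EVPL and IVL did not pass the test. A gene was called at an adjusted p under 0.05 in limma, with adjustment over 19460 probe sets. At 30 min 0 of 9 genes were called, against 0.766% of all probe sets tested, and 1 gene, SPRR1B, had an unadjusted p under 0.05 (0.0173). At 60 min 1 of 9 was called, against 2.66% of all, and at 120 min 3 of 9, against 13.4%. The median change of the 9 genes at 120 min was 0.0001, and that of all probe sets was 0.0079.

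SPRR1B had a log2 change of 0.23 ± 0.09 (SE) at 30 min, which did not pass (limma adjusted p = 0.63). It rose by 0.48 ± 0.09 at 60 min (limma adjusted p = 0.0047) and by 0.76 ± 0.09, or 1.69-fold, at 120 min (limma adjusted p = 2.1e-05). SPRR1A rose by 0.46 ± 0.10 at 120 min, 1.37-fold (limma adjusted p = 0.0084), after 0.20 ± 0.10 at 30 min and 0.35 ± 0.10 at 60 min that did not pass (adjusted p of 0.92 and 0.11). The call for SPRR1A at 120 min did not hold without the si-miR-671 terms, where the change was 0.28 (adjusted p = 0.21). TGM1 fell by 0.35 ± 0.07 at 120 min (95% interval -0.49 to -0.21, limma adjusted p = 0.002), while its change of -0.14 at 60 min had an adjusted p of 0.4. SPRR1B and TGM1 thus moved in opposite directions over the same arrays.

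For the genes that were not called at 120 min, the intervals show how large a change the arrays leave possible. SCEL had a change of -0.32 ± 0.12 (interval -0.58 to -0.06, adjusted p = 0.1) and CNFN one of -0.35 ± 0.14 (-0.66 to -0.04, adjusted p = 0.13). For IVL the change was 0.18 ± 0.12, with an interval of -0.07 to 0.43. PPL, the plakin with the tightest replicates, changed by 0.02 ± 0.07, with an interval of -0.12 to 0.15, and EVPL by -0.09 ± 0.09, with an interval of -0.27 to 0.10. SPRR3, at its low level, had an interval of -0.24 to 0.24.

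Within single transfections, each with 2 arrays against 2, EGF at 120 min gave calls for 2 of 9 genes in control (2.96% of all probe sets called), 1 of 9 in si-miR-20a (7.64%) and 2 of 9 in si-miR-671 (5.95%). SPRR1B rose by 0.76 ± 0.15 in control (limma adjusted p = 0.0094) and by 1.09 ± 0.15 in si-miR-671 (limma adjusted p = 0.00036), and had a change of 0.43 ± 0.15 in si-miR-20a (adjusted p = 0.097). SPRR1A rose by 0.81 ± 0.18 in si-miR-671 (limma adjusted p = 0.015), against changes of 0.34 in control and 0.23 in si-miR-20a that did not pass (adjusted p of 0.53 and 0.54). TGM1 fell by 0.45 ± 0.11 in control (limma adjusted p = 0.048) and by 0.49 ± 0.11 in si-miR-20a (limma adjusted p = 0.016), with -0.12 ± 0.11 in si-miR-671 (adjusted p = 0.61). SCEL had changes of -0.72 ± 0.21 in control, -0.42 ± 0.21 in si-miR-20a and 0.18 ± 0.21 in si-miR-671, none of which passed (adjusted p of 0.1, 0.27 and 0.7). CNFN had -0.05, -0.35 and -0.66 in the same order, without a call. These calls rest on few arrays: when single arrays of the compared groups were left out, adjusted p-values reached 0.14 for SPRR1B and 0.29 for TGM1 in control, 0.21 for TGM1 in si-miR-20a and 0.16 for SPRR1A in si-miR-671. Fitted on the compared groups alone, none of the calls held, with adjusted p-values of 0.15 to 0.45. In such fits only 0.2% of all probe sets were called in control, 0.283% in si-miR-20a and 0.00514% in si-miR-671.

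Whether the EGF response itself differed from control was tested with a limma F test over the 3 later times. No gene of the 9 was called for si-miR-20a (0.0154% of all probe sets called) or for si-miR-671 (0.0514%). Unadjusted p-values under 0.05 were found for SCEL (0.0196) and PPL (0.0371) with si-miR-20a, with adjusted p-values of 0.85 and 0.92, and for SCEL (0.0215) with si-miR-671, with an adjusted p of 0.46. The within-transfection calls above are therefore not shown to differ between transfections. The SCEL differences from control were 1.65, 1.14, 2.17 and 1.95 with si-miR-20a and 1.15, 1.17, 1.76 and 2.04 with si-miR-671 at 0, 30, 60 and 120 min.

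The next comparison asked how the microRNA-directed oligonucleotides differed from the non-targeting one, averaged over the 4 times with 8 arrays against 8. SCEL, SPRR1B and TGM1 stood above control in both targeting transfections, SPRR1A was higher with si-miR-20a, and CNFN was lower with it. With si-miR-20a 5 of 9 genes passed the threshold, where 24.5% of all probe sets did. With si-miR-671 3 of 9 did, where 14.5% of all did. These counts include the 3 genes whose differences were known when the members were listed, so nothing is read from them. The median change of the 9 genes was 0.10 in both comparisons, beside 0.01 and -0.0003 for all probe sets. Both comparisons use the same 8 control arrays.

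The lowest, median and highest SCEL levels were 4.87, 5.30 and 6.05 in control, 6.79, 7.03 and 7.46 in si-miR-20a, and 6.53, 6.94 and 7.02 in si-miR-671. Its mean differences from control, 1.73 ± 0.11 with si-miR-20a and 1.53 ± 0.11 with si-miR-671, were the largest in size among the 9 genes in both comparisons. For SPRR1B the lowest, median and highest levels were 7.55, 7.93 and 8.47 in control, 8.54, 8.83 and 9.29 in si-miR-20a, and 7.86, 8.43 and 9.13 in si-miR-671. At the 4 times the SPRR1B means exceeded control by 1.11, 0.92, 1.07 and 0.79 with si-miR-20a and by 0.32, 0.63, 0.42 and 0.66 with si-miR-671. For TGM1 they were 7.10, 7.60 and 7.77 in control, 7.69, 8.005 and 8.33 in si-miR-20a, and 8.14, 8.35 and 8.62 in si-miR-671, with mean differences of 0.51 ± 0.06 (1.42-fold) and 0.81 ± 0.06 (1.75-fold). The order of the targeting transfections was thus opposite for SPRR1B and TGM1.

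Of the other 6 genes, SPRR1A was higher with si-miR-20a by 0.36 ± 0.09, 1.28-fold (limma adjusted p = 0.0091), a call that was lost on the 0 and 30 min arrays alone (0.32, adjusted p = 0.13). With si-miR-671 the SPRR1A difference was 0.15 ± 0.09 (adjusted p = 0.36). CNFN was lower with si-miR-20a, by -0.40 ± 0.12 (limma adjusted p = 0.028), and its difference with si-miR-671 was -0.32 ± 0.12 (adjusted p = 0.12). The CNFN call was lost on the 0 and 30 min arrays alone (-0.22, adjusted p = 0.51) and when any of 8 single arrays was left out (adjusted p of 0.051 to 0.074): control 0 min replicate 2, 30 min replicate 2, 60 min replicate 1 and 120 min replicate 1, and si-miR-20a 0 min replicate 2, 30 min replicate 2, 60 min replicate 1 and 120 min replicate 2. IVL, SPRR3, PPL and EVPL did not pass in either comparison. With si-miR-20a the PPL difference was -0.06 ± 0.06 (interval -0.18 to 0.06) and the EVPL difference 0.04 ± 0.07 (-0.12 to 0.20). With si-miR-671 they were 0.01 ± 0.06 (-0.11 to 0.14) and 0.10 ± 0.07 (-0.06 to 0.26). For IVL the differences were 0.10 ± 0.10 and -0.11 ± 0.10, and for SPRR3 -0.21 ± 0.10 and -0.10 ± 0.10.

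**Figure D2:**
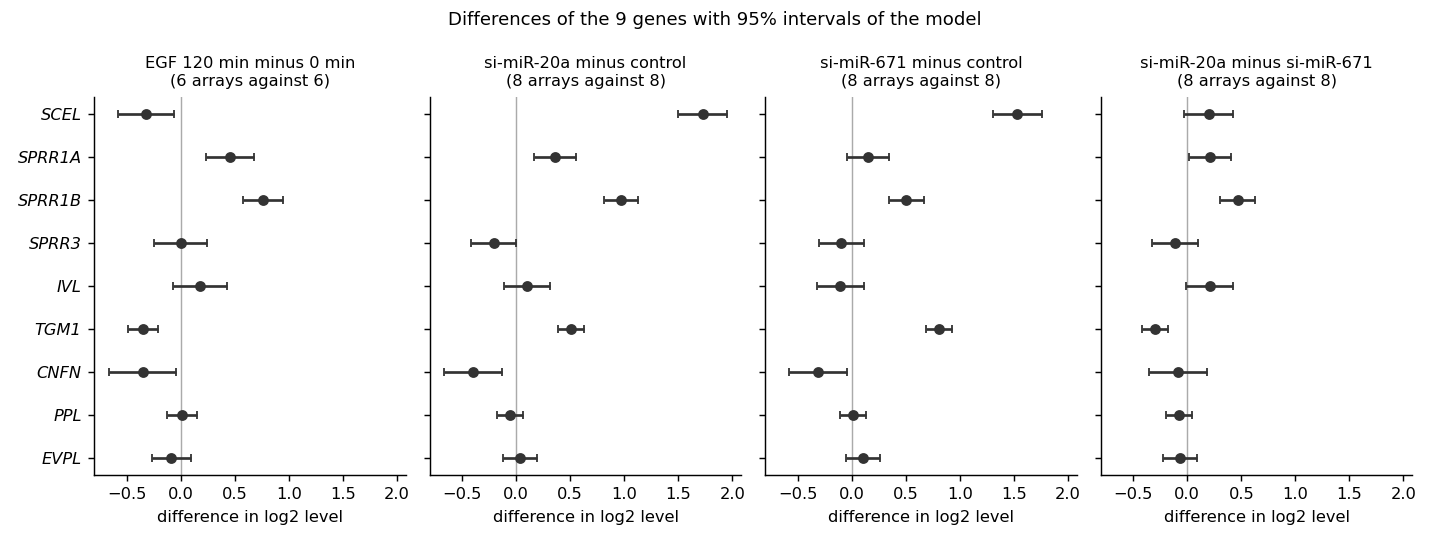
Difference in log2 level (x axis, points) with its 95% interval (bars) for each of the 9 genes (y axis) in 4 comparisons: EGF at 120 min minus 0 min, si-miR-20a minus control, si-miR-671 minus control, and si-miR-20a minus si-miR-671. SCEL lies farthest from 0 in the comparisons with control, at 1.73 and 1.53, and PPL and EVPL have intervals that include 0 in all 4.

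The targeting transfections were also compared with each other, which needs no control array. Here 2 of 9 genes passed the threshold, SPRR1B and TGM1, where 4.54% of all probe sets did. Both were listed with their transfection averages known, so nothing is read from this count and their differences are descriptions. SPRR1B stood higher with si-miR-20a than with si-miR-671 by 0.46 ± 0.08 (95% interval 0.30 to 0.63, 1.38-fold), and by 0.39 on the 60 and 120 min arrays alone. TGM1 stood lower with si-miR-20a than with si-miR-671, by -0.30 ± 0.06 (-0.42 to -0.18), and by -0.27 on the 60 and 120 min arrays alone. On those arrays alone neither difference passed the threshold, where 1.13% of all probe sets did. SCEL differed by 0.20 ± 0.11 (-0.03 to 0.42), SPRR1A by 0.21 ± 0.09 (0.02 to 0.40, adjusted p = 0.23) and IVL by 0.21 ± 0.10 (-0.01 to 0.42, adjusted p = 0.31). The 3 genes that stood above control thus did not share 1 order of the targeting transfections.

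How the members moved relative to each other is given as a description over the 12 group means, which share transfections and times. SPRR1A and SPRR1B had a Pearson r of 0.883, SCEL and TGM1 one of 0.867, and SPRR1B and CNFN one of -0.831. TGM1 and SPRR1B had only 0.302. The genes whose group means were most like those of SCEL were SPATS2L (r = 0.99), the protease inhibitor gene SERPINB13 (0.983) and DPYSL3 (0.978). For SPRR1B they were LIMA1 (0.97), CDH1, which encodes E-cadherin (0.964), and ARL14 (0.956), and for SPRR1A they were CDH12 (0.949), STX12 (0.937) and CRMA (0.929). Those of TGM1 were POLA2, a subunit of DNA polymerase alpha (0.982), WDR76 (0.96) and SYNE2 (0.949), and those of CNFN were ATP1B3 (0.953), RALGAPA2 (0.952) and ISCU (0.951).

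Several of the other small proline-rich genes rose with EGF. Of 7 measured, SPRR2A, SPRR2D, SPRR2F and SPRR2G rose at 30, 60 and 120 min, and SPRR2B, SPRR2E and SPRR4 were not called at any of these times. Of all probe sets, 0.766%, 2.66% and 13.4% were called at these times. The list was drawn up with earlier results of these data known, so its counts are descriptions. SPRR2A rose by 1.14 ± 0.16 at 30 min, 2.16 ± 0.16 at 60 min and 2.16 ± 0.16 at 120 min (limma adjusted p of 7e-04, 2.4e-07 and 1.6e-07). At 120 min SPRR2D rose by 2.02 ± 0.16, SPRR2F by 1.39 ± 0.12 and SPRR2G by 1.21 ± 0.10. The SPRR2D means at 0 min, 3.02 in control, 3.06 in si-miR-20a and 3.15 in si-miR-671, lay well under the lower quartile of the arrays and are not shown to be above background, so the size of its change is uncertain. The median change of the list was 0.66, 1.03 and 1.21 at the 3 times, beside -0.0078, 0.0020 and 0.0079 for all probe sets. At 30 min, where SPRR1B had 0.23, the calls of SPRR2A, SPRR2D and SPRR2G were lost without the si-miR-671 terms, with changes of 0.81, 0.92 and 0.56 and adjusted p-values of 0.13, 0.069 and 0.064. Of the 5 genes of this list with a RefSeq promoter window, 3 held the AP-1 motif, against 6.57% of all windows. These were SPRR2A, SPRR2F and SPRR2G, while SPRR2D, which also rose, had no window. Of the members with the motif, SPRR1A and SPRR1B were called with EGF, and SCEL, SPRR3 and IVL were not. A part of AP-1 in these changes was not tested.

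In control SPRR2A arrays read 6.03 and 6.13 at 0 min, 6.88 and 7.03 at 30 min, 8.15 and 8.22 at 60 min, and 7.98 and 8.30 at 120 min. With si-miR-20a they read 4.89 and 5.39, 5.59 and 6.19, 7.11 and 7.79, and 6.99 and 7.63. With si-miR-671 they read 5.19 and 5.42, 6.94 and 7.26, 7.29 and 7.45, and 7.33 and 7.79. SPRR2A was thus lower than control at all times with si-miR-20a and overlapped control at 30 min with si-miR-671. Averaged over time, SPRR2A was lower with si-miR-20a by -0.89 ± 0.14 (limma adjusted p = 0.00019) and with si-miR-671 by -0.51 ± 0.14 (limma adjusted p = 0.02). The si-miR-671 call was lost on the 0 and 30 min arrays alone (-0.32, adjusted p = 0.55) and without si-miR-671 0 min replicate 1 (0.052) or 120 min replicate 1 (0.054). SPRR2A therefore had a difference of opposite sign to SPRR1B in both targeting transfections, and none of the other 6 genes of the list was called in either.

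**Figure D3:**
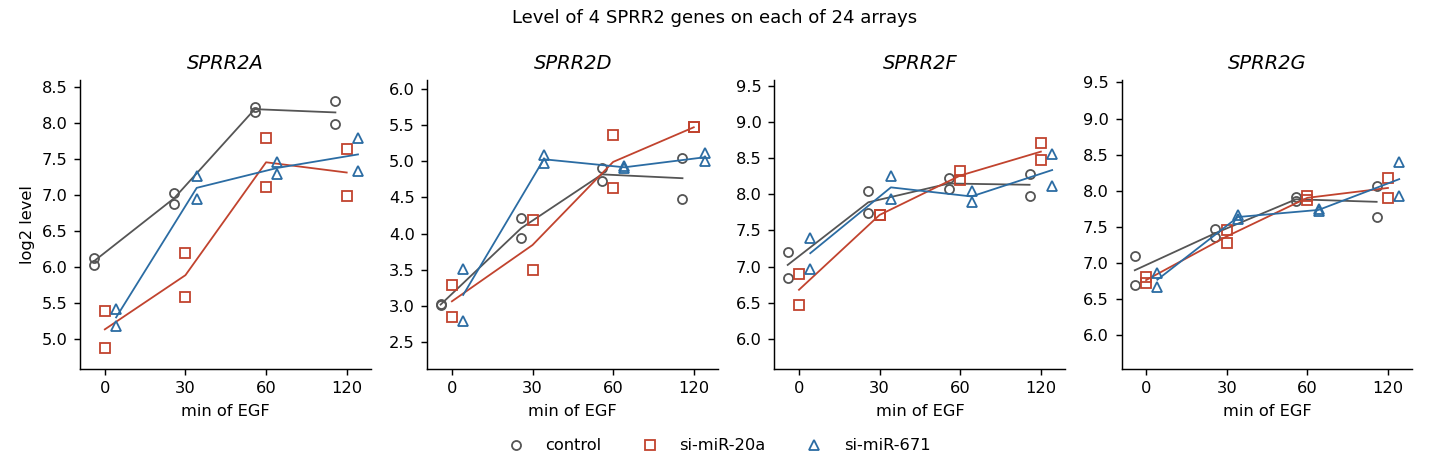
Log2 level (y axis, the same span of 4 log2 units in each panel) of SPRR2A, SPRR2D, SPRR2F and SPRR2G at 0, 30, 60 and 120 min of EGF (x axis, categories not to scale), with 1 point per array and lines through means of 2 arrays. Grey circles are control, red squares si-miR-20a and blue triangles si-miR-671. All 4 genes climb from 0 min, and SPRR2A of si-miR-20a lies under control at each time.

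Among 21 measured regulators of keratinocyte differentiation, 4 rose at 30 min, 6 rose and 1 fell at 60 min, and 7 rose and 5 fell at 120 min. Of all probe sets, 0.725% rose at 30 min, 2.16% rose and 0.493% fell at 60 min, and 7.13% rose and 6.27% fell at 120 min. At 120 min the AP-1 subunit gene FOSL1 rose by 2.23 ± 0.08, the epidermal regulator ZNF750 by 1.33 ± 0.19 and the factor GRHL3 by 0.95 ± 0.07, while the epithelial ETS factor ELF3 fell by 2.30 ± 0.10. JUNB, another AP-1 subunit gene, rose by 1.05 ± 0.08 at 30 min, and KLF4 by 0.92 ± 0.07 at 120 min. The mean ZNF750 level over all arrays, 5.24, was near their lower quartile, and before EGF it lay lower still. There it is not shown to be above background, so the size of the ZNF750 rise is uncertain. With si-miR-20a 2 of the 21 were higher and 6 lower, where 11.9% of all probe sets were called higher and 12.7% lower. With si-miR-671 0 were higher and 6 lower, where 6.79% of all were called higher and 7.7% lower. The list was drawn up with earlier results of these data known, so nothing is read from its counts. ELF3 was lower by -1.03 ± 0.09 and -0.42 ± 0.09, PRDM1, a repressor, by -0.65 ± 0.09 and -0.57 ± 0.09, and CEBPB by -0.58 ± 0.07 and -0.42 ± 0.07, in that order. On the 0 and 30 min arrays alone the si-miR-671 calls of ELF3 (adjusted p = 0.22) and CEBPB (0.42) were lost, and on the 60 and 120 min arrays alone so was the si-miR-20a call of PRDM1 (0.17). KLF4, which rose with EGF, was lower by -0.45 ± 0.06 with si-miR-20a (limma adjusted p = 0.00011). With si-miR-671 KLF4 was lower by -0.23 ± 0.06 (limma adjusted p = 0.024), a call not followed under the alternatives. SCEL, SPRR1B and TGM1 stood higher in the same arrays.

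Of 15 other envelope precursors measured, 2 were called at 120 min, a share near the 13.4% of all probe sets. Both rose, the annexin gene ANXA1 by 0.18 ± 0.04 and FLG2 by 0.29 ± 0.07. The FLG2 call was lost under 3 of 19 alternatives, among them the limma fit without the si-miR-671 terms (adjusted p = 0.084). The mean FLG2 level, 4.82, lay under the lower quartile of the arrays. It is not shown to be above background, so the size of the FLG2 change is uncertain. With si-miR-20a 1 of the 15 precursors was higher and 1 lower, and with si-miR-671 1 was lower. Of all probe sets, 24.5% and 14.5% were called there. ANXA1 was higher with si-miR-20a, by 0.19 ± 0.03 (limma adjusted p = 0.00092). PI3 encodes the protease inhibitor and envelope substrate elafin. PI3 was lower by -0.89 ± 0.07 with si-miR-20a (limma adjusted p = 3.5e-07) and by -0.72 ± 0.07 with si-miR-671 (4.5e-06). Of 16 measured late cornified envelope genes 1 rose at 120 min, LCE3B by 0.24 ± 0.07, a call lost under 9 of 20 alternatives. Among 15 transglutaminases, proteases and inhibitors of the cornified layer, 4 were higher and 3 lower with si-miR-20a, and 3 higher and 2 lower with si-miR-671. In these transfections 24.5% and 14.5% of all probe sets were called. The desquamation protease gene KLK5 was higher by 0.58 ± 0.07 and 0.63 ± 0.07, and the bleomycin hydrolase gene BLMH lower by -0.58 ± 0.05 and -0.24 ± 0.05. The si-miR-671 call of KLK5 was lost on the 0 and 30 min arrays alone (0.36, adjusted p = 0.061). TGM2, another transglutaminase gene, rose by 0.34 ± 0.08 at 120 min, where TGM1 fell; the TGM2 call was lost without the si-miR-671 terms (adjusted p = 0.07).

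Desmosomes are the junctions to which the plakins PPL and EVPL attach. Of 15 other desmosome and plakin genes 2 rose at 120 min, PKP2 by 0.57 ± 0.06 and PLEC by 0.26 ± 0.08, the latter lost under 13 of 20 alternatives. With si-miR-20a 3 were higher and 2 lower, and with si-miR-671 1 was higher and 2 lower. Of all probe sets, 13.4% were called at 120 min, 24.5% with si-miR-20a and 14.5% with si-miR-671. PKP2 was higher by 0.38 ± 0.05 and 0.32 ± 0.05, and DSC2 lower by -0.33 ± 0.04 and -0.35 ± 0.04. Of 11 keratins KRT15 fell by 0.26 ± 0.05 at 120 min, and KRT14, a basal keratin, was higher by 0.26 ± 0.03 and 0.17 ± 0.03 in the targeting transfections. Other basal markers moved both ways there. EGFR was lower by -0.24 ± 0.06 and -0.22 ± 0.06 and CDH3 by -0.11 ± 0.04 and -0.17 ± 0.04, while CAV1 was higher by 0.29 ± 0.05 and 0.20 ± 0.05. With si-miR-20a ITGB4 was higher by 0.25 ± 0.06, and with si-miR-671 ITGA6 was lower by -0.14 ± 0.04 and LAMB3 by -0.13 ± 0.04. KRT80 was also higher, by 0.41 ± 0.11 and 0.40 ± 0.11. On the 0 and 30 min arrays alone the si-miR-671 calls of PKP2 (adjusted p = 0.065), KRT14 (0.49) and KRT80 (0.88) and the si-miR-20a call of KRT80 (0.45) were lost, and without control 0 min replicate 1 the si-miR-671 call of KRT80 had an adjusted p of 0.053. Of 10 lipid envelope and ceramide genes none was called at 120 min in limma, and 2 were higher and 1 lower with si-miR-20a. With si-miR-671 1 was lower, the sphingomyelinase gene SMPD1, a call lost under 14 of 25 alternatives. The shares of all probe sets called were 13.4%, 24.5% and 14.5%, as above.

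Over the 8 lists 24 of 110 genes, 21.8%, were called at 120 min, 29 (26.4%) with si-miR-20a and 19 (17.3%) with si-miR-671, beside 13.4%, 24.5% and 14.5% of all probe sets. The share of genes called around the members in the transfections was thus near that of all probe sets. As the lists were drawn up with earlier results of these data known, these shares are descriptions.

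**Figure D4:**
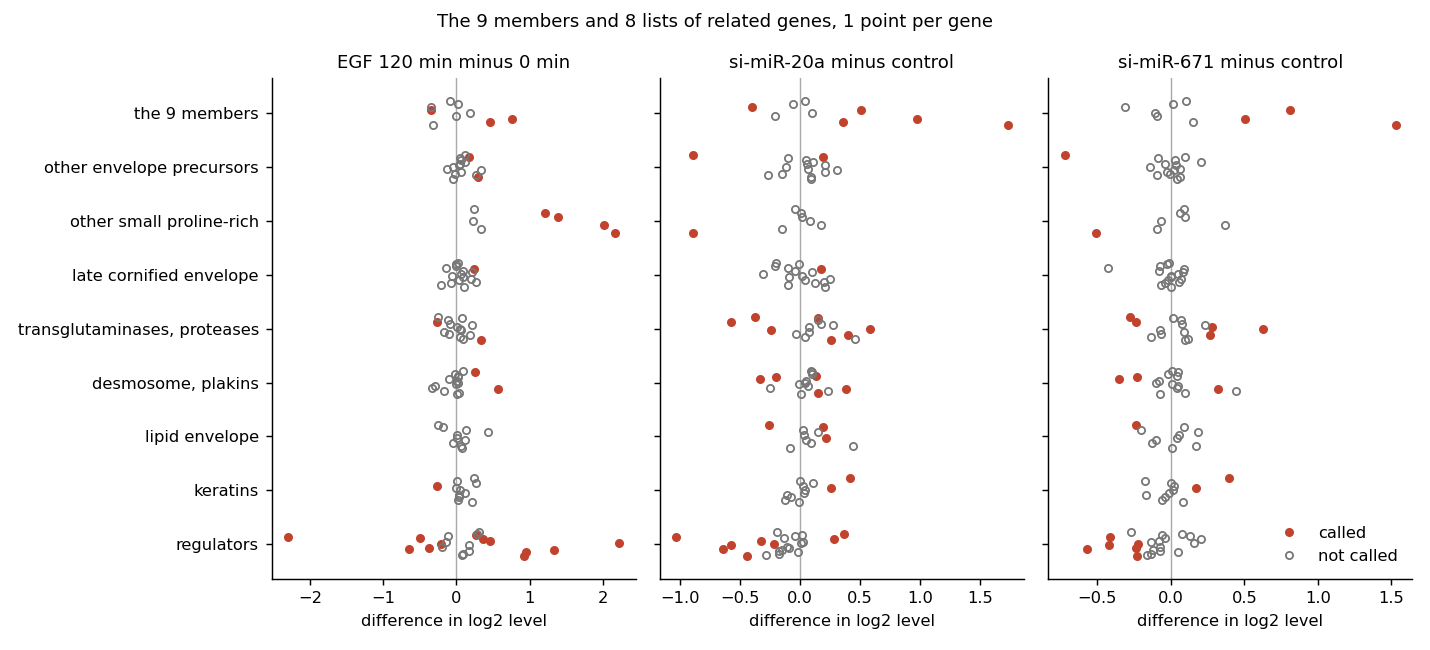
Difference in log2 level (x axis) for the 9 members and the genes of 8 related lists (y axis, 1 point per gene, spread vertically for legibility) at 120 min of EGF against 0 min, in si-miR-20a against control, and in si-miR-671 against control. Filled red points passed the threshold and open grey points did not. Of the lists, the small proline-rich genes reach 2.16 at 120 min and the regulators run from -2.30 to 2.23.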

How the data were processed

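Expression in 24 samples was measured on Human Gene 1.0 ST arrays (Affymetrix). The authors deposited 1 table of log2 values for 33297 probe sets, with no missing value; the submitters' processing notes name Affymetrix Expression Console, and no source used here gives its version, summarisation or normalization. The values were used as deposited. Each of 19460 probe sets had 1 gene symbol in the platform annotation, 1754 had several and 12083 were unlisted there. limma 3.58.1 in R 4.3.3 was fitted with 1 mean for each of the 12 groups (12 residual degrees of freedom, eBayes prior of 2.57 degrees of freedom), with no block, and p-values were adjusted by Benjamini-Hochberg over the 19460. Errors are standard errors of the model and intervals are at 95%. The number of arrays limits the precision. The script was tested on simulated data. Replicate numbers were not taken to pair the samples.

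The 9 members and the lists of related genes were chosen with earlier results of these data known, so their counts are descriptions. The text names all members, up to 4 called genes of a list by size of change in a comparison, and the 3 genes most correlated with each member called in an averaged comparison. Cell type markers other than KRT14 were named outside this rule, and their calls were not followed under the alternatives. Alternatives were quantile normalization, array weights, a trended robust prior, all probe sets, a level filter, a replicate block, fits of the compared groups, subsets of times or transfections, and leaving out each array.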

Additional observations from a re-analysis of the deposited data

How the results depend on the processing

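No member's difference changed sign in a comparison where it was called, under any of the alternatives run. SPRR1B at 60 and 120 min and TGM1 at 120 min stayed past the threshold under all 20 alternatives run for each. The number of members called at 60 min was 2 with array weights (3.82% of all probe sets called) and 1 to 2 when single arrays were left out, beside 1 (2.66%). At 120 min in control, 1 was called with all probe sets (1.68% of all called), 1 after quantile normalization (2.93%) and 0 when only the groups compared were fitted (0.2%). Without single arrays the number was 0 to 1, beside 2 (2.96%). In si-miR-20a at 120 min it was 0 with array weights (2.89%), 0 on the groups compared alone (0.283%) and 0 to 2 without single arrays, beside 1 (7.64%). In si-miR-671 at 120 min it was 1 with probe sets above the median level (11.1%), 0 on the groups compared alone (0.00514%) and 1 to 2 without single arrays, beside 2 (5.95%). With si-miR-20a against control it was 2 with probe sets above the median level (38.7%), a filter that leaves out members of low level. On the 0 and 30 min arrays it was 3 (12%), beside 5 (24.5%). Between the targeting transfections it was 0 on the 60 and 120 min arrays (1.13%), beside 2 (4.54%). With the replicate block the members called were 3 at 120 min (14.1%), 5 with si-miR-20a (25%) and 3 with si-miR-671 (14.6%), as without it. Counts against control and between the targeting transfections include genes listed with known differences, so nothing is read from them. Deviations of same-numbered arrays correlated between groups from -0.573 to 0.55 (median 0.063, above 0.1 in 30 of 66 pairs of groups), so the numbers were not taken to pair the samples. Some groups thus shared deviations, with either sign, while the model takes the arrays as independent. The cause was not tested. The share of all probe sets called at 120 min ran from 7.14% to 23.6% over the alternatives, with si-miR-20a from 12% to 38.7%, and with si-miR-671 from 2.81% to 24.5%. Another probe set of a member could not be tried, since each has 1. SPRR3, FLG2, ZNF750, SCEL of late control arrays and SPRR2D at 0 min lay near or under the lower quartile. There signal over background limits what can be seen, and no detection calls were used. The causes of the changes with array weights, normalization or subsets of times were not tested.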
